A study of Mus musculus with 32 samples.

Results

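Albumin and 9 other genes of carrier proteins that the liver secretes into plasma were followed through livers that lack mitochondrial fission or fusion proteins. The members were the rows of the deposited results table whose symbol is *Alb*, *Afm*, *Gc*, *Ttr*, *Rbp4*, *Ahsg*, *Fetub*, *Ambp*, *Itih4* or *Hpx*. All 10 were present, each as a single row, among 21880 genes. In DKO mice at 6M all 10 counts were below those of WT mice, at a median of 41.3% of the WT level. In TKO mice no member passed the test at either age, where few genes did (0.199% of all genes tested called lower at 2M, 0.535% at 6M).

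Hepatocytes secrete most of the protein of blood plasma, and albumin, the most abundant of these proteins, carries fatty acids, bilirubin and many drugs. Genes of this kind are transcribed from promoters bound by factors that hepatocytes need to keep their identity, among them HNF4, C/EBP and FOXA proteins, and their products are used in the clinic to judge how well the liver makes protein. Several of them are also negative acute phase genes, whose synthesis drops during inflammation, whereas others, such as hemopexin and *Itih4*, are known to rise.

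The livers came from mice aged 2 months (2M) or 6 months (6M) that were WT, L-*Dnm1l*–KO, TKO or DKO, with 4 libraries in each of 8 groups and 32 in all. L-*Dnm1l*–KO mice lack the fission protein DRP1 in the liver, DKO mice lack the fusion proteins MFN1 and MFN2, and TKO mice lack all of these. The floxed lines were on a mixed C57BL/6/129 background and were crossed with Alb-Cre mice on C57BL/6J. The recombinase is thus driven by the promoter of albumin itself and acts in hepatocytes and in cells of their lineage, so the other cells of the liver keep the floxed genes. The labels name the control libraries Drp1_WT, and the same 4 WT libraries of an age served all 3 genotypes of that age. DKO and TKO mice came from floxed lines of their own, for which no control is labelled. In these mice the effects of genotype and of line cannot be told apart. Nothing in the labels gives the sex of the mice or pairs them. In bulk tissue, fewer hepatocytes and less RNA per hepatocyte cannot be told apart.

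The deposited table holds, for each gene, 1 mean normalized count over all libraries and, for each of 6 comparisons with WT of the same age, the log2 fold change with its standard error and the *P* value before and after Benjamini-Hochberg adjustment. Values of single libraries were not analysed here, so the spread between mice enters through the standard errors. A difference was called at an adjusted *P* value under 0.05. The library kit marks strand, but the strand option used in counting is not given in the sources used here. Of the 100 rows with the highest mean counts, 92 are genes with a coding gene opposite their exons, and 3 are coding genes with no annotated gene opposite. *Alb* ranked 26th in the table with 0.551% of all counts, and the 10 members together held 0.844%. A value below is therefore the count of the row with the member's name, and whether that row holds the reads of its mRNA is not settled by the files. Of the targeted genes, *Dnm1l* had a mean count of 8.70, and its log2 fold change in L-*Dnm1l*–KO mice was −0.42 ± 0.52 (SE) at 2M and −0.44 ± 0.47 at 6M, neither past the test. In TKO mice, which are labelled as lacking it too, the *Dnm1l* row stood at 0.58 ± 0.48 at 2M and −0.37 ± 0.47 at 6M, so this row does not separate the groups as labelled. *Mfn1* was lower in 6M DKO mice (−3.74 ± 0.98, adjusted *P* = 0.00383) and stood at −1.17 ± 0.79 in 2M DKO, −1.80 ± 0.94 in 2M TKO and −2.27 ± 0.70 in 6M TKO mice. *Mfn2* was lower in 2M TKO mice (−2.05 ± 0.53), 2M DKO mice (−3.43 ± 0.66) and 6M DKO mice (−1.58 ± 0.52), and stood at −1.16 ± 0.48 in 6M TKO mice without an adjusted *P* value. A floxed allele loses only part of its gene, so a count over the whole row is a weak check of the labels.

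The members lie on 7 chromosomes of GRCm38. *Gc*, which encodes the vitamin D binding protein, spans chr5:89417522-89457898 on the minus strand. Its relatives *Alb* (chr5:90460897-90476602) and *Afm*, the gene of the vitamin E binding protein afamin (chr5:90518932-90553543), lie on the plus strand of the same chromosome. The fetuin genes *Ahsg* (chr16:22891277-22899449) and *Fetub* (chr16:22918334-22939778) are neighbours on the plus strand of chromosome 16. *Ttr* is at chr18:20665280-20674321, *Rbp4* at chr19:38116629-38125281, *Ambp* at chr4:63143275-63154799, *Itih4* at chr14:30886476-30902353 and *Hpx* at chr7:105591613-105600137. Per kb of annotated exon, pooled over the libraries, the mean normalized count was 2117 for *Alb* and 370 for *Ahsg*, followed by 266 for *Ttr*, 259 for *Ambp*, 223 for *Gc*, 180 for *Hpx* and 159 for *Rbp4*. *Itih4* had 48.5 per kb, *Fetub* 24.9 and *Afm* 7.39, so the albumin family holds both the highest and the lowest row. These are levels of rows over all groups, with no error given in the table.

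**Figure D1:**
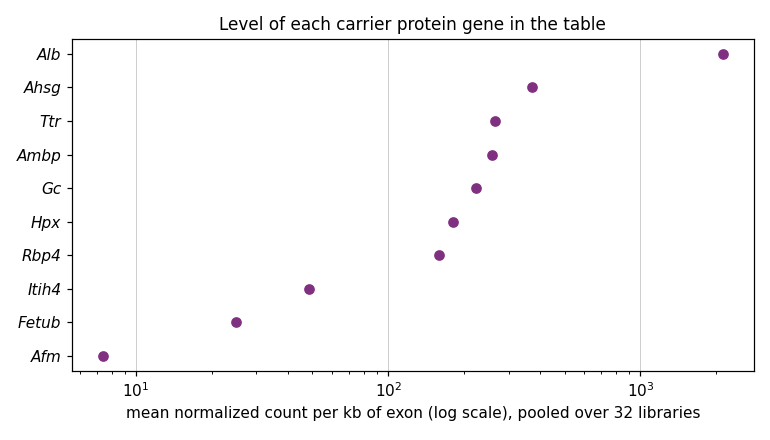
Mean normalized count per kb of exon for each member, on a log scale, as 1 pooled value over the 32 libraries with no error. *Alb* stands at 2117 per kb and *Afm* at 7.39.

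The RefSeq promoter windows, from 250 bases before to 50 bases after the annotated start, cover 9 of the 10 members in 11 windows. The windows of the albumin family are shown because all 3 of its genes, and no other member with a window, hold the motif GTTAAT on either strand. The motif, in capitals, is present in 7.10% of all 32851 windows of that length in the table.
*Alb* (chr5:90460620-90460919, plus strand, GRCm38.p6): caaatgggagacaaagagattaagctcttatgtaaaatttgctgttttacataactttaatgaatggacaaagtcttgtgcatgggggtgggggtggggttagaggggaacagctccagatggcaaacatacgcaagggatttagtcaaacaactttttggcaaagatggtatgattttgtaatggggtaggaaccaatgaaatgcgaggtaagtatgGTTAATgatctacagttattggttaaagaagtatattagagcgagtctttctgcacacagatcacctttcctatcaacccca
*Afm* (chr5:90518699-90518998, plus strand, GRCm38.p6): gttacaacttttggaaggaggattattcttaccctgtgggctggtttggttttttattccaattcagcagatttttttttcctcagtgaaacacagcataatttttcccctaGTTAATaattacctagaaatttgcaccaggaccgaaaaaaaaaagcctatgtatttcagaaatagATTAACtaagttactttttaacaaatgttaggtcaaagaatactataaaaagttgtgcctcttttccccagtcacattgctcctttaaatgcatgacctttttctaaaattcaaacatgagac
*Gc* (chr5:89457849-89458148, minus strand, GRCm38.p6): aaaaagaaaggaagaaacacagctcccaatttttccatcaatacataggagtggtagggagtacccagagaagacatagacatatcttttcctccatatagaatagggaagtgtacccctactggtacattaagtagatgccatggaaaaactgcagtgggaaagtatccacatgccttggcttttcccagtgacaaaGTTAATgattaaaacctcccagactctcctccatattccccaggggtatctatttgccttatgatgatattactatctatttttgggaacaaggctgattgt
The first base of the motif lies at −32 in *Alb*, at −52 in *Gc*, and at −138 and −73 in *Afm*, counted from the start with no base 0. The FOXA motif TGTTTAC was found in windows of *Fetub* and *Rbp4* and in 3.65% of all windows. The C/EBP motif in the form TTNNGCAA was found for *Alb*, *Hpx*, *Ahsg* and *Rbp4* (10.8% of all windows), and in the form TTGCNNNAA for *Alb* and *Ahsg* (9.56%), where both forms share bases. The TATA motif TATAAA was found for *Afm*, *Itih4*, *Fetub* and *Rbp4* (13.6% of all windows). The short HNF4 motif CAAAG was present for all 9 members with a window and in 53.9% of all windows. A match describes the letters of the window and is no measurement of binding.

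At 2M, all 10 members had a count below WT in L-*Dnm1l*–KO mice, with log2 fold changes from −2.19 (*Afm*) to −0.45 (*Ambp*) and a median of −1.16, and 4 of 10 were called lower: *Afm*, *Ttr*, *Rbp4* and *Fetub*. In that comparison 3.22% of all 6185 genes tested were called lower, and the median over them was −0.07. In 2M DKO mice 8 members lay below WT with a median of −0.63 over the 10. Of them *Ttr* and *Fetub* were called lower, where 4.94% of 7881 genes were, and *Ahsg* was called higher, where 4.14% were. In 2M TKO mice 8 members lay above WT, the median was 0.17 and no member passed the DESeq2 test in the table. By unadjusted *P* value 1 of 10 members (*Ahsg*) was under 0.05 there, against 5.64% of all genes, and 0.199% of all 7033 genes tested were called lower.

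At 6M, DKO mice had all 10 members called lower, from −2.52 (*Hpx*) to −0.79 (*Rbp4*) with a median of −1.28, whereas 9.42% of 9153 genes tested were called lower and the median over them was −0.23. In 6M L-*Dnm1l*–KO mice the members ranged from −1.48 (*Itih4*) to 0.12 (*Ttr*) around a median of −0.20, and none passed the DESeq2 test, where 1.56% of 5336 genes were called lower. *Itih4* alone had an unadjusted *P* value under 0.05 in that group, as did 14% of all genes. In 6M TKO mice the range was −0.76 (*Itih4*) to 0.41 (*Ahsg*) around 0.04. There, 0 of 10 members had an adjusted or an unadjusted *P* value under 0.05, against 0.535% of 4488 genes called lower and 9.18% of genes with an unadjusted *P* value under 0.05.

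**Figure D2:**
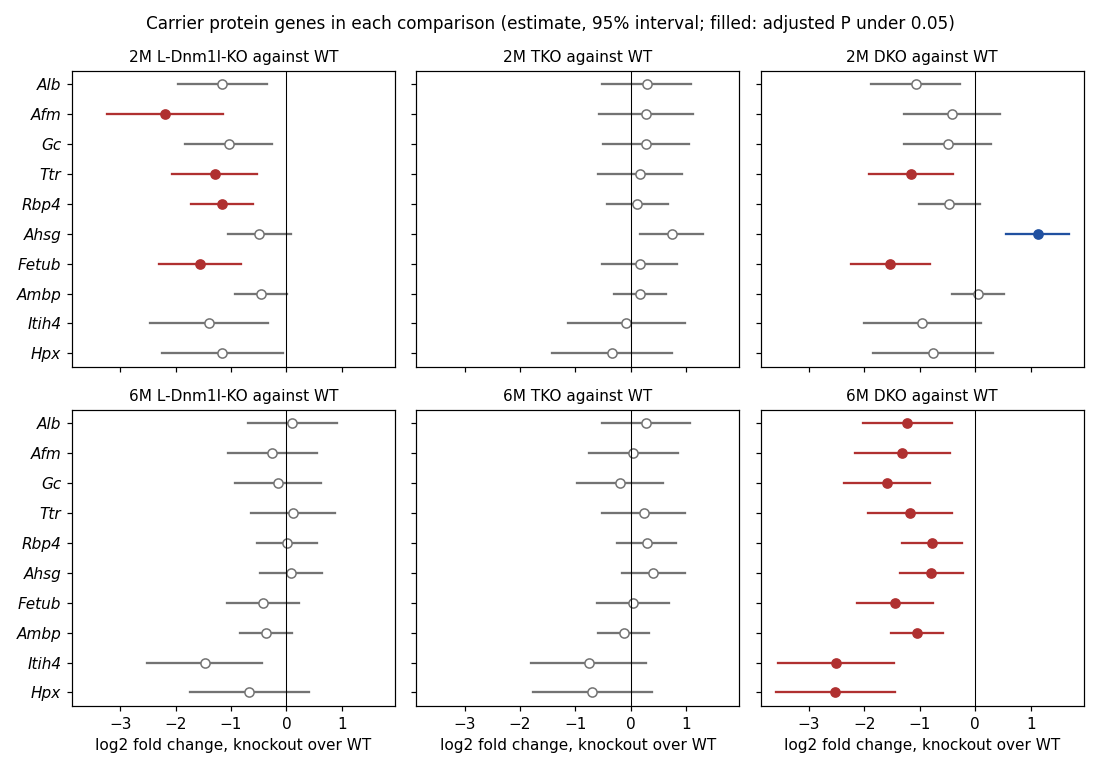
Log2 fold change of each member in each knockout group over WT of the same age, with 95% intervals from the deposited standard errors (4 libraries per group). Filled points have an adjusted *P* value under 0.05, red if lower and blue if higher. All 10 are filled in 6M DKO mice, 4 in 2M L-*Dnm1l*–KO mice and none in TKO mice. Of all genes tested, 9.42%, 3.22%, 0.199% (2M TKO) and 0.535% (6M TKO) were called lower in these groups.

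These shifts ran alongside those of a whole class of rows, the coding genes with no annotated gene opposite them, which holds 8 of the 10 members. Over the 108 of them with a mean count of at least 100, the median was −0.78 in the 2M L-*Dnm1l*–KO comparison, −0.52 in 2M DKO mice and −1.04 in 6M DKO mice. The 843 genes with a coding gene opposite, at the same minimum, had medians of 0.09, 0.04 and 0.36. In TKO mice the first class had medians of 0.10 at 2M and −0.01 at 6M. Of the 108 coding genes with nothing opposite, 34.3% were called lower in 2M L-*Dnm1l*–KO mice, 28.7% in 2M DKO mice and 68.5% in 6M DKO mice. When each log2 fold change was centred on the median of its class, taken at a mean count of 10 or more, *Itih4* and *Hpx* were still called lower in 6M DKO mice, *Afm* in 2M L-*Dnm1l*–KO mice and *Fetub* in 2M DKO mice, while *Ahsg* was still called higher in 2M DKO mice. Centred on the class median taken at a mean count of 100 or more, no member was called lower in any comparison. Some lay just past the threshold, *Itih4* (−1.48, adjusted *P* = 0.0511) and *Hpx* (−1.49, adjusted *P* = 0.0591) in 6M DKO mice and *Fetub* (−1.01, adjusted *P* = 0.0579) in 2M DKO mice. Members of the class with such counts also enter its median. What moves the class was not tested.

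**Figure D3:**
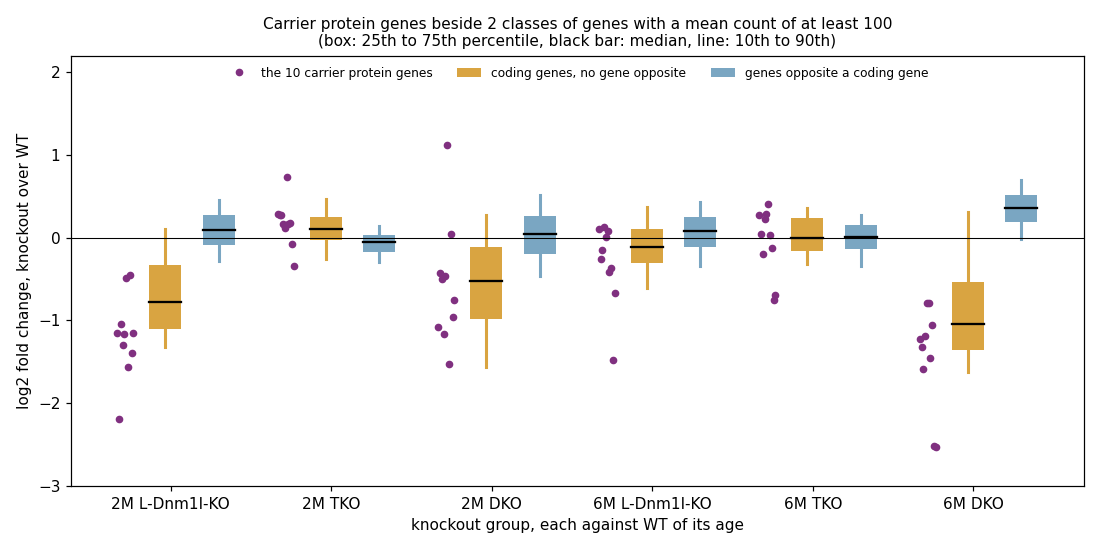
Log2 fold changes of the 10 members (points) beside 2 classes of genes with a mean count of at least 100, namely 108 coding genes with no gene opposite and 843 genes opposite a coding gene. Boxes span the 25th to 75th percentile, black bars mark medians and lines span the 10th to 90th percentile. In 6M DKO mice the class medians were −1.04 and 0.36.

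In the albumin family, *Alb* had 44.9% of the WT count in 2M L-*Dnm1l*–KO mice (log2 fold change −1.15 ± 0.41, adjusted *P* = 0.0654) and 47.4% in 2M DKO mice (−1.08 ± 0.41, adjusted *P* = 0.0787), neither of them called. In 6M DKO mice it was lower at 42.7% of WT (−1.23 ± 0.41, adjusted *P* = 0.0255). In TKO mice *Alb* stood at 122% of WT at 2M and 121% at 6M, with a 95% interval of the log2 fold change from −0.53 to 1.07 at 6M. *Afm* had the largest fold difference of any member at 2M: its count in L-*Dnm1l*–KO mice was 4.56-fold lower than in WT mice (−2.19 ± 0.54, adjusted *P* = 0.00262), at a mean of only 22.4 counts. In 6M DKO mice it was 2.50-fold lower (adjusted *P* = 0.0244). *Gc* was 2.06-fold below WT in 2M L-*Dnm1l*–KO mice without passing the test (adjusted *P* = 0.0984) and 3.01-fold lower in 6M DKO mice (−1.59 ± 0.40, adjusted *P* = 0.00229). The 3 genes whose promoter windows are shown above were thus all lower in 6M DKO mice, as were the 6 other members with a window, none of which holds that motif.

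Transthyretin and retinol binding protein travel in plasma as a complex that carries thyroxine and retinol. *Ttr* was 2.45-fold lower in 2M L-*Dnm1l*–KO mice (−1.29 ± 0.39, adjusted *P* = 0.0236), 2.24-fold lower in 2M DKO mice (−1.16 ± 0.39, adjusted *P* = 0.0355) and 2.27-fold lower in 6M DKO mice (−1.18 ± 0.39, adjusted *P* = 0.0233). These 3 values lie well within each other's errors, and with adjustment over all genes none of them was called (adjusted *P* from 0.0552 to 0.0954). *Rbp4* was 2.25-fold lower in 2M L-*Dnm1l*–KO mice (−1.17 ± 0.28, adjusted *P* = 0.00234) and 1.73-fold lower in 6M DKO mice (−0.79 ± 0.28, adjusted *P* = 0.0342), and stood at 72.3% of WT in 2M DKO mice (adjusted *P* = 0.351). In 6M L-*Dnm1l*–KO mice both genes were close to WT, *Ttr* at 109% and *Rbp4* at 101%, with a 95% interval for *Rbp4* from −0.53 to 0.54. The lower *Rbp4* count in 6M DKO mice turned to 0.06 when centred on its class.

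The fetuins went apart in 2M DKO mice. *Fetub*, whose product fetuin-B inhibits the protease that hardens the egg coat, was 2.89-fold lower there (−1.53 ± 0.37, adjusted *P* = 0.00103), whereas its neighbour *Ahsg*, which encodes fetuin-A, a carrier of calcium phosphate in plasma, was 2.18-fold higher (1.12 ± 0.29, adjusted *P* = 0.00267). *Fetub* was also 2.95-fold lower in 2M L-*Dnm1l*–KO mice (adjusted *P* = 0.00227) and 2.73-fold lower in 6M DKO mice (adjusted *P* = 0.00154). *Ahsg* was at 71.1% of WT in 2M L-*Dnm1l*–KO mice (adjusted *P* = 0.332) and 1.73-fold lower in 6M DKO mice (−0.79 ± 0.29, adjusted *P* = 0.0440), where centring on the class with no gene opposite gave 0.05. In 2M TKO mice it was at 167% of WT (unadjusted *P* = 0.0105, adjusted *P* = 0.616).

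*Ahsg* and *Afm* are the only members with an annotated gene opposite their exons. *Gm30505*, an antisense gene on the minus strand at chr16:22874983-22894386, starts inside exon 2 of *Ahsg* and shares 62 exonic bases with it. That coding exon of 111 bases is printed 5′ to 3′ on the strand of *Ahsg*, from the GENCODE M21 transcript, with the shared bases in capitals.
*Ahsg* exon 2 (chr16:22894325-22894435, plus strand, GRCm38): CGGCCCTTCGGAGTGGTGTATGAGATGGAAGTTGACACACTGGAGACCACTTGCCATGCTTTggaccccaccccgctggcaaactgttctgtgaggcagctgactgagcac
The *Gm30505* row had a mean count of 20079, rank 4 in the table and 24.7 times the count of the *Ahsg* row. Its log2 fold change was 0.82 ± 0.13 in 2M DKO mice (adjusted *P* = 2.19e-08), in the direction of *Ahsg*, and 0.44 ± 0.13 in 6M DKO mice (adjusted *P* = 0.00894), where *Ahsg* was lower. *Gm42109*, on the minus strand at chr5:90553199-90589077, overlaps 108 bases at the end of *Afm*, with a mean count of 959, or 42.7 times that of *Afm*. It passed the test in none of the 6 comparisons, and stood at −0.35 ± 0.19 in 2M L-*Dnm1l*–KO and at 0.35 ± 0.19 in 6M DKO mice. Within the shared bases, reads of a gene and of its partner cannot be told apart without the strand setting. These are 62 of 2197 exon bases of *Ahsg* and 108 of 3038 of *Afm*. The *Ahsg* and *Afm* values are thus uncertain. For every other member too, the unknown setting leaves unsettled whether its row holds the reads of its mRNA.

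**Figure D4:**
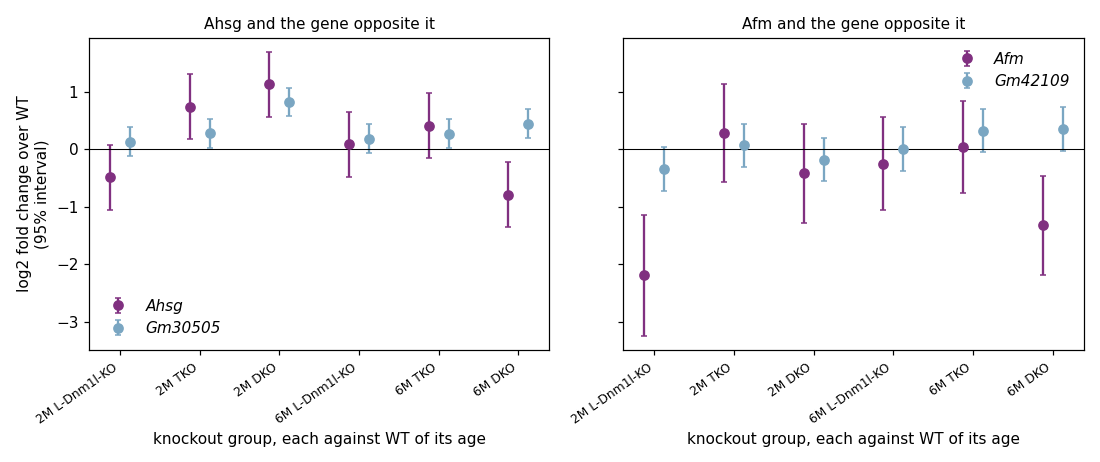
Log2 fold change over WT, with 95% intervals, of *Ahsg* and *Afm* (purple) and of the annotated gene opposite each (blue) in the 6 knockout groups. *Ahsg* and *Gm30505* both lie above WT in 2M DKO mice at 1.12 and 0.82, and on either side of 0 in 6M DKO mice at −0.79 and 0.44.

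*Ambp* encodes a precursor that is cut into α1-microglobulin, a heme and radical scavenger, and bikunin, the light chain of inter-α-inhibitors, and *Itih4* encodes a plasma protein of the family of their heavy chains. *Ambp* was 2.07-fold lower in 6M DKO mice (−1.05 ± 0.24, adjusted *P* = 0.000783) and was not called elsewhere. It stood at 73.0% of WT in 2M and 77.4% in 6M L-*Dnm1l*–KO mice, at 91.5% in 6M TKO mice and at 104% of WT in 2M DKO mice with a 95% interval from −0.42 to 0.52. *Itih4* was 5.70-fold lower in 6M DKO mice (−2.51 ± 0.53, adjusted *P* = 0.000259). In L-*Dnm1l*–KO mice it was at 38% of WT at 2M (−1.40 ± 0.54, adjusted *P* = 0.0999) and 35.9% at 6M (−1.48 ± 0.53, adjusted *P* = 0.0986), and these were not called. It was below WT in all 6 comparisons, at 94.6% in 2M and 59.2% in 6M TKO mice.

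Hemopexin binds free heme and returns it to hepatocytes. *Hpx* was 5.75-fold lower in 6M DKO mice (−2.52 ± 0.55, adjusted *P* = 0.000425), with *Itih4* the lowest of the members there. It was below WT in the other comparisons too, between 44.9% in 2M L-*Dnm1l*–KO mice (adjusted *P* = 0.210) and 79.1% in 2M TKO mice, without passing the test. Its standard error was 0.55 in each comparison, and the 95% interval in 2M L-*Dnm1l*–KO mice ran from −2.24 to −0.07.

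Whether an effect changed with age was tested on the difference of the log2 fold changes at 6M and 2M divided by the square root of the sum of their squared errors. For the DKO effect, *Ahsg* fell by 1.91 on the log2 scale from 1.12 to −0.79 (adjusted *P* = 0.000599) and *Ambp* fell by 1.10 from 0.05 to −1.05 (adjusted *P* = 0.0298), while 4.87% of 7881 genes were called in either direction. The *Ambp* call was lost with class centring (−0.48, adjusted *P* = 0.481) and with adjustment over all genes (adjusted *P* = 0.0807), and that of *Ahsg* was kept in both (adjusted *P* = 0.0303 and 0.00166). The other 8 members were not called, among them *Hpx* (−1.77 ± 0.78, adjusted *P* = 0.164) and *Itih4* (−1.56 ± 0.76, adjusted *P* = 0.218). For the L-*Dnm1l*–KO effect 9 of 10 members had a higher log2 fold change at 6M, with a median difference of 1.02, and 5 had an unadjusted *P* value under 0.05, as did 12.8% of all genes, but none passed the adjustment by this test (lowest adjusted *P* = 0.127, for *Rbp4*), where 0.918% of 5336 genes did. For the TKO effect 0 members had an adjusted or unadjusted *P* value under 0.05, against 0.0% and 6.42% of 4488 genes.

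TKO mice differ from L-*Dnm1l*–KO mice by the further loss of the mitofusins and by the floxed line they came from. At 2M the TKO effect was above the L-*Dnm1l*–KO effect for all 10 members, by a median log2 difference of 1.32. *Afm* was called (2.46 ± 0.69, adjusted *P* = 0.0335), and 1.24% of 6185 genes were called in either direction. Both effects share their WT libraries, which makes the summed error too large. With 0.5 of each squared error taken as the shared WT part and removed, 7 of 10 members were called higher in TKO mice, *Alb* (1.44 ± 0.41, adjusted *P* = 0.00824), *Afm*, *Gc*, *Ttr*, *Rbp4*, *Ahsg* and *Fetub*, where 12.4% of all genes were called. With class centring and the summed errors no member was called. At 6M the median difference between TKO and L-*Dnm1l*–KO effects was 0.26 and 0 members were called at an adjusted or unadjusted *P* value under 0.05, against 0.267% and 3.85% of 4488 genes, or 2.38% and 11.6% with the WT part removed.

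Against DKO mice, the TKO effect at 2M was higher for *Fetub* (1.69 ± 0.50, adjusted *P* = 0.0336), where 2.89% of 7033 genes were called, and with the WT part removed also for *Alb* and *Ttr*, where 11.3% were. *Ahsg* was the only member whose TKO effect lay below its DKO effect at 2M. At 6M it was above for all 10 members, by 0.92 (*Ambp*) to 1.83 (*Hpx*) and a median of 1.41. By the test with summed errors 0 of 10 were called (adjusted *P* from 0.0898 to 0.177), although all 10 had an unadjusted *P* value under 0.05, as did 21% of all genes tested, and 0.111% of 4488 genes were called. With the WT part removed all 10 were called (adjusted *P* from 0.000562 to 0.00975), as were 28.3% of all genes tested.

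**Figure D5:**
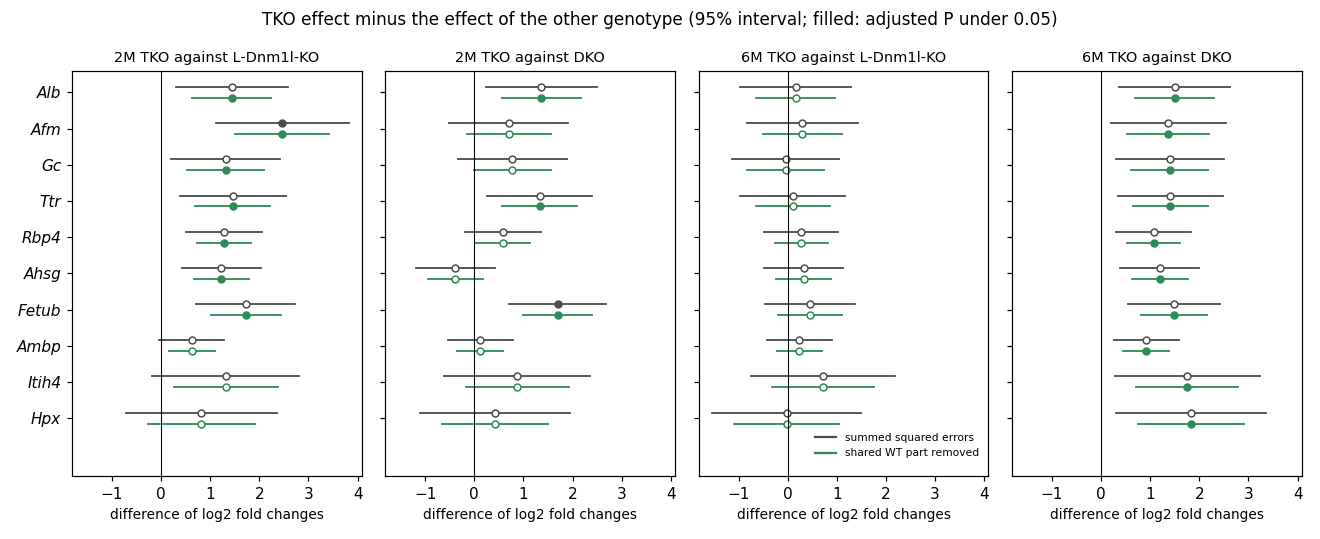
Difference of the log2 fold changes of TKO mice and of L-*Dnm1l*–KO or DKO mice of the same age for each member, with 95% intervals from summed squared errors (grey) or with an assumed shared WT part removed (green). Filled points have an adjusted *P* value under 0.05. At 6M all 10 members lie above 0 against DKO mice, filled only in green.

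A list of 26 other plasma carrier genes was read beside the members. All 26 were in the table, transferrin as *Trf*, and 20 were called lower in 6M DKO mice, where 9.42% of all genes tested were. Of coding genes with nothing opposite, 34.4% with a mean count of at least 10 and 68.5% of the abundant ones were called lower there. The median was −1.5 over the 24 tested, against −0.23 over all genes. In 2M L-*Dnm1l*–KO mice 5 of 23 tested were called lower (*Serpina6*, *Hrg*, *Kng1*, *Kng2* and *Pzp*), against 3.22% of all genes. Of coding genes with nothing opposite, 8.69% with a mean count of at least 10 and 34.3% of the 108 abundant ones were. Of the 26 listed genes, 21 had a mean of at least 10. *Serpina6* (22.96), *Kng2* (25.95) and *Hrg* (93.31) had mean counts below the minimum for the abundant genes. In 2M DKO mice 2 of 24 tested were called lower (*Hrg* and *Lrg1*), against 4.94% of all genes. Of coding genes with nothing opposite, 10.5% with a mean count of at least 10 and 28.7% of the abundant ones were. None was called higher in any comparison. *Hrg*, the gene of histidine-rich glycoprotein, was the only gene of the list called in 3 comparisons, at −1.20 ± 0.40 in 2M L-*Dnm1l*–KO, −1.16 ± 0.39 in 2M DKO and −1.68 ± 0.38 in 6M DKO mice. The kininogen genes *Kng1* (−1.10 ± 0.35 and −1.64 ± 0.35) and *Kng2* (−1.79 ± 0.47 and −1.97 ± 0.43) were lower in 2M L-*Dnm1l*–KO and 6M DKO mice, and *Pzp*, a protease-trapping macroglobulin, likewise (−1.27 ± 0.42 and −1.69 ± 0.41). In 6M TKO mice *Afp*, the fetal relative of albumin, was lower (−1.35 ± 0.38, adjusted *P* = 0.0467).

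Among genes of factors that regulate such promoters, *Cebpa* (−0.86 ± 0.27) and *Zbtb20* (−0.97 ± 0.31) were lower in 2M L-*Dnm1l*–KO mice, *Foxa1* (−1.25 ± 0.43) in 2M DKO mice and *Foxa2* (−3.44 ± 1.27) in 6M DKO mice, the last at a mean count of 2.51. These were 2 of 10 such genes tested in 2M L-*Dnm1l*–KO, 1 of 10 in 2M DKO and 1 of 12 in 6M DKO mice, where 3.22%, 4.94% and 9.42% of all genes and 8.69%, 10.5% and 34.4% of coding genes with nothing opposite and a mean of at least 10 were called lower, so the DKO counts were near or below the background. None was called in TKO mice, where 0.199% of all genes tested were called lower at 2M and 0.535% at 6M. *Lrp1*, a receptor that takes up the heme-hemopexin complex, was lower in 6M DKO mice (−1.68 ± 0.34, adjusted *P* = 0.000104), 1 of 3 receptor genes tested there, against the same 9.42% and 34.4%. The receptor genes *Stra6l* and *Fcgrt* were not called in any comparison. In 6M DKO mice both lay below WT too, *Stra6l* at −1.77 ± 0.66 (adjusted *P* = 0.0502) and *Fcgrt* at −1.11 ± 0.49 (adjusted *P* = 0.0968).

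Of 10 hepatocyte marker genes, 6 were called lower in 2M L-*Dnm1l*–KO mice, 5 in 2M DKO mice and 10 in 6M DKO mice, with medians of −1.2, −1.0 and −1.38. Of all genes tested, 3.22%, 4.94% and 9.42% were called lower in these groups, and of the 108 abundant coding genes with nothing opposite 34.3%, 28.7% and 68.5%. No hepatocyte marker was called in L-*Dnm1l*–KO mice at 6M or in TKO mice. Few genes were called lower there, 1.56% of all tested in 6M L-*Dnm1l*–KO, 0.199% in 2M TKO and 0.535% in 6M TKO mice. Rows of other cell types were sparse. Of 8 macrophage markers 1 had a mean count of at least 10, *Csf1r*, which was higher in 6M DKO mice (0.81 ± 0.20, adjusted *P* = 0.00168). The other 7 lay below WT in that group at mean counts of 0.586 to 4.17. Among them were *C1qb* (−3.96 ± 1.42, unadjusted *P* = 0.00526), *Vsig4* (−3.08 ± 1.49, unadjusted *P* = 0.0391) and *Cd5l* (−1.67 ± 0.84, adjusted *P* = 0.157). Of these 7 only *Cd5l* and *Clec4f* had an adjusted *P* value there, and neither was called. In 2M L-*Dnm1l*–KO mice, where all 10 members lay below WT, 7 of the 8 macrophage markers lay above it. Among them were *C1qb* (4.54 ± 1.41, unadjusted *P* = 0.00123) and *Cd5l* (1.59 ± 0.85, unadjusted *P* = 0.0625). Only *Csf1r* had an adjusted *P* value in that group and it was not called, while the other markers could not be. Of the 8 stellate cell, 6 endothelial, 5 cholangiocyte and 4 proliferation markers in the table, none reached a mean of 10. The part of cell composition in the members' values was not tested. The genes whose 6 log2 fold changes lay closest to the members' median, among 1005 other genes with a mean of at least 100, included *Hpd* (root mean square difference 0.129), *Selenop* (0.139), *Aldh2* (0.141) and *Slc38a3* (0.143). Among the members themselves *Gc* was closest to that median at 0.182, and *Ahsg* (0.845) and *Itih4* (0.818) were farthest.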

How the data were processed

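Liver RNA-seq of 32 mouse libraries was analysed from the deposited results table. The authors mapped reads with HISAT2 2.1.0.13 to GRCm38, counted them with HTSeq and fitted DESeq2. Per the file headers, the signal is the mean normalized count, identical in the 6 comparisons, and the deposited log2 values are fold changes over WT and their standard errors. The deposited p-value columns hold Wald test *P* values and Benjamini-Hochberg adjusted *P* values, which are absent for genes removed by a low-count filter. The depth per library is unknown.

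Members and lists were chosen with earlier results of these data known. The 95% intervals are the estimate ± 1.96 standard errors. Differences between effects were tested two-sided by a z test with Benjamini-Hochberg adjustment over genes with an adjusted *P* value in both comparisons, a test first run on simulated data. The design asked for a count test only if library counts were at hand. GENCODE M21 gave positions and strand classes for 21833 genes; 47 were not found. *Afm* and *Ahsg*, in neither class, were centred with coding genes that have no gene opposite. Named genes were all members, genes opposite them, listed genes that passed the test and the 5 nearest in pattern; of the other plasma carrier genes, those called in most comparisons. Results of some genes that this rule names are not reported here. Sequences came from RefSeq and GENCODE. Python 3.11.15, numpy 2.4.6, pandas 2.3.3, scipy 1.17.1 and matplotlib 3.10.9 were used.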

Additional observations from a re-analysis of the deposited data

Results flagged for a closer look

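For 2 members the DKO effect differed between ages. The log2 fold change of *Ahsg* at 6M minus that at 2M was −1.91 ± 0.41 (adjusted *P* = 0.000599), and that of *Ambp* was −1.10 ± 0.34 (adjusted *P* = 0.0298), with adjusted *P* from 0.0181 to 0.481 over the alternatives for *Ambp* and from 0.000244 to 0.0303 for *Ahsg*.

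For 2 members the effect differed between genotypes at 2M. The TKO effect minus the L-*Dnm1l*–KO effect was 2.46 ± 0.69 for *Afm* (adjusted *P* = 0.0335), and the TKO effect minus the DKO effect was 1.69 ± 0.50 for *Fetub* (adjusted *P* = 0.0336). With class centring the differences were 1.88 and 1.34 and neither was called (adjusted *P* = 0.197 and 0.188). With adjustment over all genes the same differences were not called either (adjusted *P* = 0.119 and 0.103), whereas 7 and 3 members were called with the shared WT part removed. The spread of single samples could not be examined, since values per library were not analysed.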

How the results depend on the processing

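The count of members called was recomputed for each comparison. With a log2 fold change beyond 1.5 required, 2 were called in 2M L-*Dnm1l*–KO mice, 1 in 2M DKO mice and 3 in 6M DKO mice. With *P* values adjusted over all 21879 genes with a *P* value, 3 were called in 2M L-*Dnm1l*–KO mice and 2 in 2M DKO mice, both without *Ttr* (adjusted *P* = 0.0799 and 0.0954), 5 in 6M DKO mice (*Gc*, *Fetub*, *Ambp*, *Itih4* and *Hpx*), 1 for the DKO effect at 6M against 2M (*Ahsg*) and 0 for 2M TKO against L-*Dnm1l*–KO or DKO mice. Adjusted over genes at a mean of 10 or more, 3 were called for 2M TKO against L-*Dnm1l*–KO mice. With class centring at a mean of at least 10, 1 was called in 2M L-*Dnm1l*–KO mice, 2 in 6M DKO mice, 1 for the DKO effect at 6M against 2M and 0 for 2M TKO against L-*Dnm1l*–KO or DKO mice. With class centring at a mean of at least 100, an alternative chosen after seeing the data, these counts were 0, 0, 1, 0 and 0, and 1 was called in 2M DKO mice (*Ahsg*). With the shared WT part removed, 7 were called for 2M TKO against L-*Dnm1l*–KO mice, 3 for 2M TKO against DKO mice and 10 for 6M TKO against DKO mice. In 6M DKO mice *Rbp4* and *Ahsg* turned from lower to 0.0571 and 0.0532 with class centring at a mean of at least 10, and to 0.25 and 0.24 at 100. The cause was not tested. Centring on the median of all genes with a mean of at least 10 changed no member's call.

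No paired analysis was possible because the table holds no values of single libraries. Leaving out a library and other normalizations were not run for the same reason. The depth per library is unknown, and the members' standard errors of 0.24 to 0.55 limit what could be detected.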
